A study of Homo sapiens with 18 samples.

Results

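Genes that make cholesterol and fatty acids were followed in HCC827, a non-small cell lung cancer line that carries an activating EGFR mutation, and in 2 sublines derived from it that are resistant to erlotinib, an inhibitor of the EGFR kinase. The set was a list of 38 gene symbols: 20 for cholesterol synthesis and transport, 4 regulators and 14 for fatty acid synthesis, desaturation, elongation and activation. Its members were the array probes annotated to these symbols, and the rule itself uses no expression value, although the list was drawn up with earlier results of these data known. Probes were found for 36 of the 38 genes, and 35 passed the filter on dim probes, out of 11820 genes tested in all. FDFT1 (squalene synthase) and ACSL3 (an acyl-CoA ligase) were not analysed here, since no probe was annotated to them. The only probe of STARD4, a cytosolic sterol carrier, was not well above background on any array. A member that passed only through the group in which it was bright was FADS2, a fatty acid desaturase, whose probe was above background on all 3 arrays of HCC827 in DMSO, on 1 of 3 with erlotinib and on none of the subline arrays.

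Each line was starved overnight and then given erlotinib at 1 µM, or DMSO alone, for 12 h, which made 6 groups of 3 Illumina BeadChip arrays: T15-2 with erlotinib and in DMSO, ER3 with erlotinib and in DMSO, and HCC827 with erlotinib and in DMSO. All groups thus share the starvation, and the DMSO cells are starved cells. The labels do not say how ER3 and T15-2 were selected or whether either is a single clone. Nor do they say that the triplicate arrays come from different cultures, and the p-values therefore measure the spread between these arrays, which may be technical. Since whole cultures were measured, fewer cells of a kind and less RNA per cell cannot be told apart. Arrays had 15698 to 17869 probes above background, and arrays of a group correlated between 0.991 and 0.997 across genes. The epithelial genes EPCAM, KRT8, KRT18, KRT19 and CDH1 and the lung genes NKX2-1 and NAPSA were above background on all 18 arrays, and PTPRC, CDH5, COL1A2 and PDGFRB, which mark leukocytes, endothelium and fibroblasts, on none. Of the remaining markers of those cell types PECAM1 was above background on 18 arrays, CD14 on 17, DCN on 8 and CD3E on 2. The third lung gene, SFTPB, was above background on 13 of the 18 arrays, and on 1 array in its lowest group. In DMSO, 4 of the 5 epithelial genes and 2 of the 3 lung genes measured were lower in T15-2 than in HCC827 (16.3% of all genes were), as were 1 and 3 in ER3 (19% of all genes), and PECAM1 was higher in ER3. With erlotinib in HCC827, 2 of the 5 epithelial genes were lower, 2 of the 3 lung genes were higher and 1 was lower, and the leukocyte marker CD14 was lower (-0.52 ± 0.18), where 19.2% of all genes rose and 18.5% fell. The part of these markers in the results below was not tested. Of the spread within groups, the first principal component set ER3 DMSO replicate 2 against T15-2 erlotinib replicate 3. Levels below are background-corrected, quantile-normalised intensities on the log2 scale, changes are differences of these values with their standard error (SE), and a gene is said to have risen or fallen when the limma test adjusted over all genes (Benjamini-Hochberg) gave p below 0.05.

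Cholesterol is built from acetyl-CoA through the mevalonate pathway to squalene, which is closed to lanosterol and then trimmed in a series of demethylation, reduction and isomerisation steps. Fatty acids are built by ACACA and FASN from the same acetyl-CoA, which ACLY makes from citrate. They are then desaturated, elongated and joined to coenzyme A. Both routes are known targets of the sterol regulatory element binding proteins encoded by SREBF1 and SREBF2, which SCAP carries from the endoplasmic reticulum to the Golgi for cleavage and which INSIG1 holds back when sterols are plentiful. Growth factor signalling through AKT is a known input to these proteins.

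Promoter sequence was read for 34 members (RefSeq, GRCh38.p14, 250 bases before to 50 after each annotated start). CCAAT, the letters bound by the factor NF-Y, is a known companion of the sterol regulatory element. On either strand they occurred in promoters of 25 of the 34 members (73.5%), 14 of 17 of the cholesterol branch and 9 of 13 of the fatty acid branch, against 39.7% of 27305 genes with a promoter in the table. Among members they occurred in 14 of the 18 that fell with erlotinib in HCC827 and have a promoter in the table, and in 9 of the other 14 tested with one. The letters TCACNCCAC of the sterol regulatory element were found in 2 of 34 members (SREBF2 and ACSL1), against 1.39% of all genes, and in none of those 18. The palindrome CACGTG occurred in 5 of 34 members, against 8.77% of all genes. These shares are over all genes with a promoter, many of them not tested here, and were not taken over the tested genes alone. Members not tested here are among the 34, and FDFT1, SQLE, ACAT2 and FASN have no promoter in the table. The windows below belong to members described in the results that follow, and to SREBF2 as the regulator that holds the sterol element letters. Capitals mark the matched letters (ATTGG is CCAAT on the other strand), each window is written along the gene's own strand, and a match is a description of these letters only.
HMGCS1 (chr5:43313547-43313583, minus strand, CCAAT from -155): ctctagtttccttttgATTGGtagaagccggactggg
HMGCS1 (chr5:43313492-43313528, minus strand, CCAAT from -100): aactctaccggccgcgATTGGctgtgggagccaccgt
IDI1 (chr10:1048953-1048989, minus strand, CCAAT from -87): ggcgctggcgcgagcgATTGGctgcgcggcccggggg
MSMO1 (chr4:165327468-165327504, plus strand, CCAAT from -185): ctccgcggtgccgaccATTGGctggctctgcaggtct
EBP (chrX:48521722-48521758, plus strand, CCAAT from -70): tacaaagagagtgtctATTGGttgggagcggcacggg
TM7SF2 (chr11:65111782-65111818, plus strand, CCAAT from -74): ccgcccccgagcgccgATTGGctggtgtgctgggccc
INSIG1 (chr7:155297692-155297728, plus strand, CCAAT from -170): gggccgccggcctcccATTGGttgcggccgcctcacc
INSIG1 (chr7:155297807-155297844, plus strand, CACGTG from -55): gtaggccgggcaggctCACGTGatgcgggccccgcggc
SREBF2 (chr22:41832956-41832996, plus strand, TCACNCCAC from -133): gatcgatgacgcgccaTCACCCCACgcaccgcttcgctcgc
HMGCS1, IDI1, MSMO1, EBP and INSIG1 fell with erlotinib in HCC827 and TM7SF2 rose. Windows were printed only for promoters with a match, so CCAAT in all 6 follows from that choice. It is no evidence of a link with the response. SREBF2 did not pass the test in any comparison.

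The first comparison asked what erlotinib did to these genes in the sensitive parent. In HCC827, 21 of the 35 members fell with erlotinib and 1 rose, where 18.5% of all genes tested fell and 19.2% rose. The median change of the members was -0.34, against 0.01 over all genes, and 30 of the 35 had a lower mean with erlotinib. In the cholesterol branch 11 of 18 fell and 1 rose (median -0.45), in the fatty acid branch 9 of 13 fell and none rose (median -0.34), and of the regulators INSIG1 alone was called. Without FADS2, which the filter kept through the DMSO arrays of HCC827, 20 of 34 members fell (8 of 12 in the fatty acid branch), with a median of -0.36. At an unadjusted p below 0.05, 22 of the 35 members were lower and 1 was higher, and the share over all genes at that threshold was not taken. The mean over the 18 cholesterol members was 8.90, 8.86 and 8.81 on the erlotinib arrays and 9.28, 9.31 and 9.22 on the DMSO arrays, and that over the 13 fatty acid members was 9.76, 9.65 and 9.64 with erlotinib and 10.08, 10.07 and 10.02 in DMSO.

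HMGCS1, the cytosolic synthase that joins acetyl-CoA to acetoacetyl-CoA, had levels of 11.20, 11.22 and 11.34 with erlotinib and 12.10, 12.56 and 12.23 in DMSO. No erlotinib array reached the lowest DMSO array, and the change was -1.04 ± 0.11 (2.06-fold lower, adjusted p = 5.49e-07). IDI1, which isomerises the isoprenoid building block, had 6.45, 5.95 and 5.96 with erlotinib and 7.28, 7.08 and 7.07 in DMSO, a fall of similar size (-1.02 ± 0.16, adjusted p = 4.82e-05). ACAT2, the thiolase that supplies acetoacetyl-CoA, gave 10.37, 10.29 and 10.21 with erlotinib and 11.01, 11.15 and 11.08 in DMSO (-0.79 ± 0.09). Its second probe was dim and changed by -0.23. FDPS, the farnesyl diphosphate synthase, was also called (-0.45 ± 0.15, adjusted p = 0.022), but its groups overlapped: the erlotinib arrays ranged from 8.60 to 8.83 and the DMSO arrays from 8.68 to 9.50. Without HCC827 DMSO replicate 1, the highest array, its change was -0.27 (adjusted p = 0.16). The mevalonate kinases and the decarboxylase were not called, at -0.09 ± 0.12 for MVK, -0.17 ± 0.15 for PMVK and -0.26 ± 0.11 for MVD, so the falls of the mevalonate steps lay in 4 of the 7 genes measured.

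Of the 10 genes that turn squalene into cholesterol, 7 fell. SQLE, the squalene epoxidase, stood at 9.88, 9.89 and 9.82 with erlotinib and 10.81, 10.69 and 10.52 in DMSO (-0.81 ± 0.10, 1.75-fold lower, adjusted p = 4.21e-06). CYP51A1, the lanosterol demethylase, had 7.29, 6.85 and 6.90 with erlotinib and 8.04, 7.68 and 7.79 in DMSO (-0.83 ± 0.14). These 2 enzymes act on either side of LSS, the cyclase, which had 8.70, 9.15 and 8.89 with erlotinib and 8.82, 9.19 and 8.99 in DMSO and was not called (-0.09 ± 0.13). SC5D, the sterol desaturase, gave 9.37, 9.10 and 9.33 with erlotinib and 10.09, 10.05 and 9.81 in DMSO (-0.72 ± 0.14). EBP, the sterol isomerase, had 9.03, 9.04 and 9.08 with erlotinib and 9.51, 9.56 and 9.60 in DMSO, and DHCR7, the last reductase, had 9.38, 9.54 and 9.35 with erlotinib and 9.76, 9.92 and 9.93 in DMSO. Both pairs of groups lay apart, with changes of -0.51 ± 0.08 for EBP and -0.45 ± 0.09 for DHCR7. The methyl oxidase MSMO1 (-0.71 ± 0.11) and the decarboxylating dehydrogenase NSDHL (-0.44 ± 0.08) also fell, and the reductase HSD17B7 was not called (0.07 ± 0.15). TM7SF2, a sterol reductase of the same stretch of the pathway, was the single member that rose, with 8.90, 9.25 and 9.01 with erlotinib and 8.15, 8.19 and 8.40 in DMSO (0.81 ± 0.16, 1.75-fold higher, adjusted p = 0.000441). NPC1, which exports cholesterol from lysosomes, was not called (-0.05 ± 0.08).

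**Figure D1:**
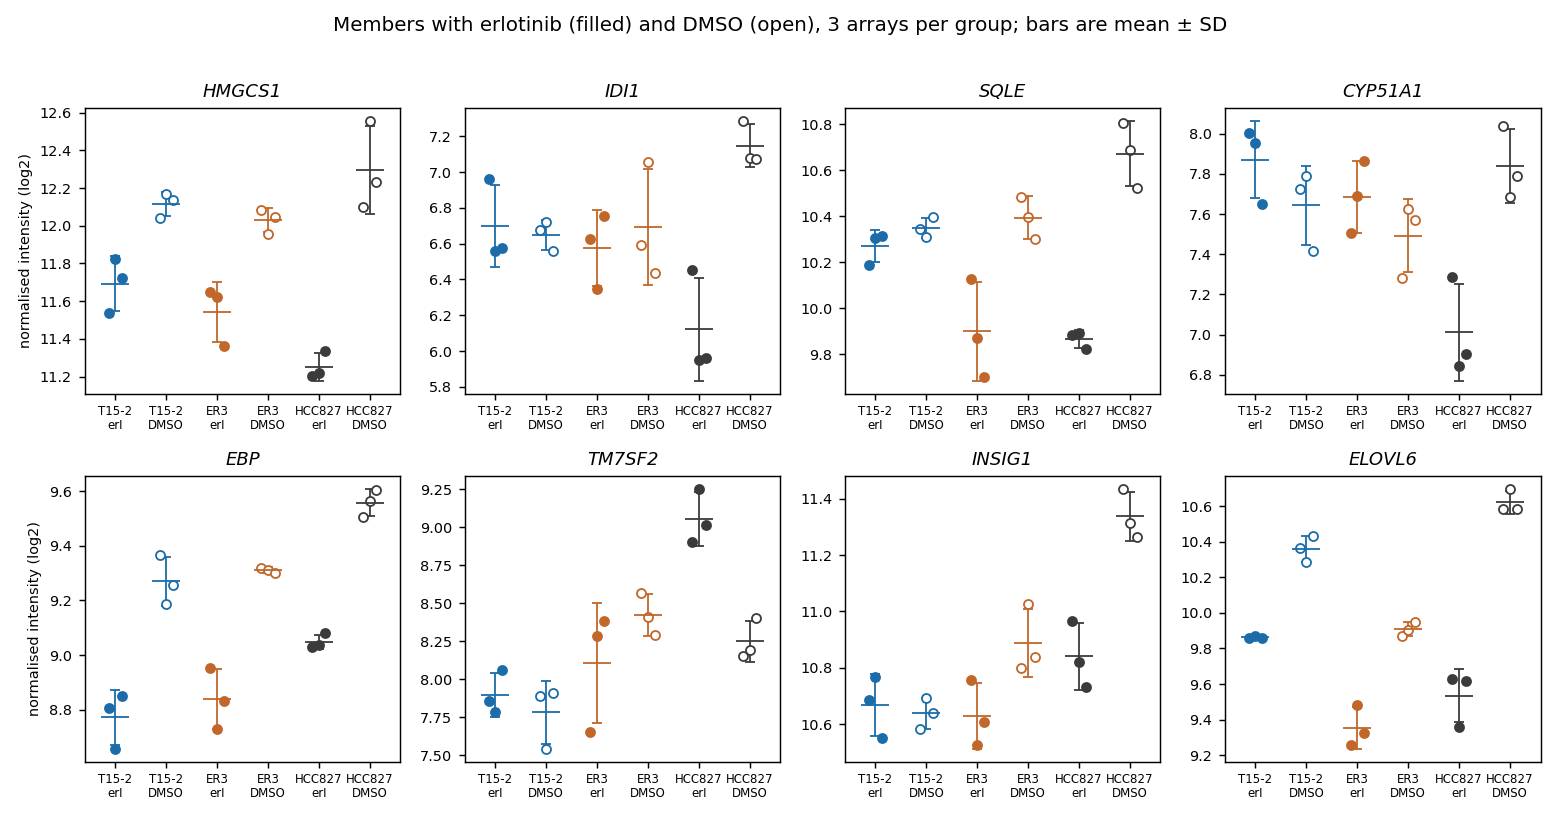
Normalised intensity (log2, vertical axes differ between panels) of 8 members on each array, with T15-2, ER3 and HCC827 from left to right and erlotinib (filled) left of DMSO (open) in each; horizontal bars are group means and error bars 1 SD of 3 arrays. In HCC827 the erlotinib arrays lie below the DMSO arrays in 7 panels and above them in that of TM7SF2, while CYP51A1 shows overlapping groups in both sublines.

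Among the regulators, INSIG1 had 10.97, 10.82 and 10.73 with erlotinib and 11.43, 11.31 and 11.27 in DMSO (-0.50 ± 0.10, 1.41-fold lower, adjusted p = 0.000385), and its second probe changed by -0.58. INSIG1 is itself a known target of the proteins it restrains. SREBF1 gave 7.88, 8.21 and 7.93 with erlotinib and 7.79, 8.16 and 7.91 in DMSO, so that its groups overlapped almost wholly (0.05 ± 0.11). SREBF2 was dim, above background on 11 of the 18 arrays, with 5.43, 5.27 and 4.65 with erlotinib and 4.97, 4.72 and 4.85 in DMSO (0.27 ± 0.24), and it did not pass the test. The escort SCAP had 8.91, 9.03 and 8.73 with erlotinib and 8.81, 8.76 and 8.86 in DMSO (0.08 ± 0.10). Messenger levels say nothing of the cleavage of these proteins, which the arrays do not measure.

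In the fatty acid branch ELOVL6, which elongates palmitate, had the largest fall of the members: 9.63, 9.36 and 9.61 with erlotinib and 10.58, 10.70 and 10.59 in DMSO (-1.09 ± 0.09, 2.13-fold lower, adjusted p = 1.7e-08). Its second probe changed by -1.26. ACSL4, the ligase that prefers arachidonate, had 10.18, 9.74 and 9.99 with erlotinib and 10.66, 10.69 and 10.44 in DMSO (-0.63 ± 0.11), while its other kept probes changed by -0.12 and -0.40. ACLY, which makes cytosolic acetyl-CoA from citrate, had 11.84, 11.72 and 11.80 with erlotinib and 12.36, 12.43 and 12.29 in DMSO (-0.57 ± 0.10, with -0.47 for its second probe). SCD, the desaturase that makes oleate, gave 12.80, 12.69 and 12.60 with erlotinib and 13.02, 13.01 and 13.08 in DMSO (-0.34 ± 0.08, 1.27-fold lower). FASN, the fatty acid synthase, gave 13.35, 13.40 and 13.21 with erlotinib and 13.74, 13.59 and 13.54 in DMSO, groups that lay apart by less than the range within the DMSO group (-0.30 ± 0.11, adjusted p = 0.0408). ME1, the malic enzyme that yields NADPH, had 7.55, 7.42 and 7.48 with erlotinib and 7.98, 7.85 and 7.75 in DMSO (-0.37 ± 0.13). The remaining falls were those of the carboxylase ACACA (-0.27 ± 0.09), the elongase ELOVL5 (-0.48 ± 0.18) and FADS2 (-0.34 ± 0.11, above background on 1 of the 3 erlotinib arrays). ACSS2, which makes acetyl-CoA from acetate, FADS1, ELOVL1 and ACSL1 were not called, at -0.17, -0.07, -0.04 and -0.11.

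Of the 22 calls in HCC827, 16 held in every alternative processing and with every array left out in turn. The others were FDPS, ACACA, FASN, ME1, FADS2 and ELOVL5, each of which lost its call without at least 1 of HCC827 DMSO replicate 1 or HCC827 erlotinib replicate 3, with changes between -0.22 and -0.46 there. FADS2 changed by -0.22 without HCC827 DMSO replicate 1. Calls were lost in other settings too. ELOVL5 lost its call in 13 settings, among them no filter on dim probes and eBayes with its trend and robust options. FADS2 lost it with no background correction, under median scaling and with the authors' processed values. FASN lost it under median scaling, and FDPS with only the compared groups fitted.

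The same treatment was then compared within each resistant subline. In T15-2, 6 of 35 members fell and 1 rose, where 4.00% of all genes fell and 4.43% rose, and the member median was -0.06 against 0.01 over all genes. In ER3, 5 members fell and none rose, where 1.74% of all genes fell and 2.01% rose, and the member median was -0.17 against 0.01. At an unadjusted p below 0.05, 10 members were lower and 1 higher in T15-2, and 13 were lower and 0 higher in ER3. The shares over all genes at that threshold were not taken, and the percentages above do not apply to these counts. The 3 responses share no arrays. All 6 falls of T15-2 and all 5 of ER3 were among the 21 of HCC827, and ACAT2, HMGCS1, EBP and ELOVL6 fell in all 3 lines. How often a gene that fell in a subline also fell in HCC827 was not counted over all genes, and 21 of the 35 members fell in HCC827. The nesting is therefore not read as a result about the members. It also depended on the threshold. ACSS2 in ER3 narrowly missed a call (-0.30 ± 0.08, adjusted p = 0.0505) and gained one in 11 other settings. PMVK in T15-2 (-0.45 ± 0.15, adjusted p = 0.0752) gained a call in 5 other settings. Neither gene was called in HCC827.

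ELOVL6 had 9.86, 9.87 and 9.86 with erlotinib and 10.37, 10.29 and 10.43 in DMSO in T15-2 (-0.50 ± 0.09, adjusted p = 0.00192). In ER3 it had 9.26, 9.48 and 9.32 with erlotinib and 9.87, 9.91 and 9.95 in DMSO (-0.55 ± 0.09, adjusted p = 0.00262). EBP gave 8.81, 8.66 and 8.85 with erlotinib and 9.37, 9.19 and 9.26 in DMSO in T15-2, and 8.95, 8.73 and 8.83 with erlotinib and 9.32, 9.31 and 9.30 in DMSO in ER3. These falls of EBP, -0.50 ± 0.08 in T15-2 and -0.47 ± 0.08 in ER3, were as large as that in HCC827 (-0.51). HMGCS1 had 11.54, 11.82 and 11.72 with erlotinib and 12.04, 12.17 and 12.14 in DMSO in T15-2 (-0.42 ± 0.11). In ER3 the synthase had 11.65, 11.62 and 11.36 with erlotinib and 12.08, 11.96 and 12.05 in DMSO (-0.49 ± 0.11). ACAT2 had 10.13, 10.30 and 10.26 with erlotinib and 10.69, 10.57 and 10.46 in DMSO in T15-2 (-0.34 ± 0.09), and 11.07, 11.00 and 11.20 with erlotinib and 11.50, 11.57 and 11.42 in DMSO in ER3 (-0.41 ± 0.09). In each of these 8 comparisons the erlotinib arrays lay wholly below the DMSO arrays.

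SQLE fell in ER3, with 10.13, 9.87 and 9.70 with erlotinib and 10.49, 10.40 and 10.30 in DMSO (-0.49 ± 0.10). In T15-2 the epoxidase had 10.19, 10.31 and 10.31 with erlotinib and 10.34, 10.31 and 10.40 in DMSO, a change of -0.08 ± 0.10 that was not called. DHCR7 fell in T15-2, where it had 9.07, 9.17 and 9.26 with erlotinib and 9.59, 9.50 and 9.61 in DMSO (-0.40 ± 0.09, adjusted p = 0.00799), and its change in ER3 was -0.28 ± 0.09 without a call. NSDHL fell by 0.30 ± 0.08 in T15-2. NPC1 rose there by 0.36 ± 0.08, with levels from 10.68 to 10.90 with erlotinib against 10.43 to 10.52 in DMSO, and it changed by 0.03 in ER3. CYP51A1, which fell in HCC827, had 8.00, 7.95 and 7.65 with erlotinib and 7.73, 7.79 and 7.42 in DMSO in T15-2, and 7.50, 7.69 and 7.86 with erlotinib and 7.28, 7.62 and 7.57 in DMSO in ER3. Its groups overlapped in both sublines (0.23 ± 0.14 in T15-2 and 0.19 ± 0.14 in ER3). IDI1 overlapped likewise, with 6.96, 6.56 and 6.58 with erlotinib and 6.68, 6.72 and 6.56 in DMSO in T15-2, and 6.63, 6.34 and 6.76 with erlotinib and 6.59, 7.06 and 6.44 in DMSO in ER3.

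The subline calls depended on the settings. With the 6 arrays of ER3 fitted alone, 0 of its 5 calls remained (adjusted p between 0.095 for ELOVL6 and 0.16 for ACAT2); the count was 2 without ER3 DMSO replicate 1, those of EBP and ELOVL6, and 3 without ER3 erlotinib replicate 3. In T15-2 the count was 4 when its arrays were fitted alone, 4 without T15-2 DMSO replicate 2 and 2 without T15-2 erlotinib replicate 1. With each array scaled to its median over all probes, the count was 0 in T15-2 and 0 in ER3. Leaving out the pair of arrays that the first principal component set apart gave 9 calls in T15-2 and 7 in ER3.

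**Figure D2:**
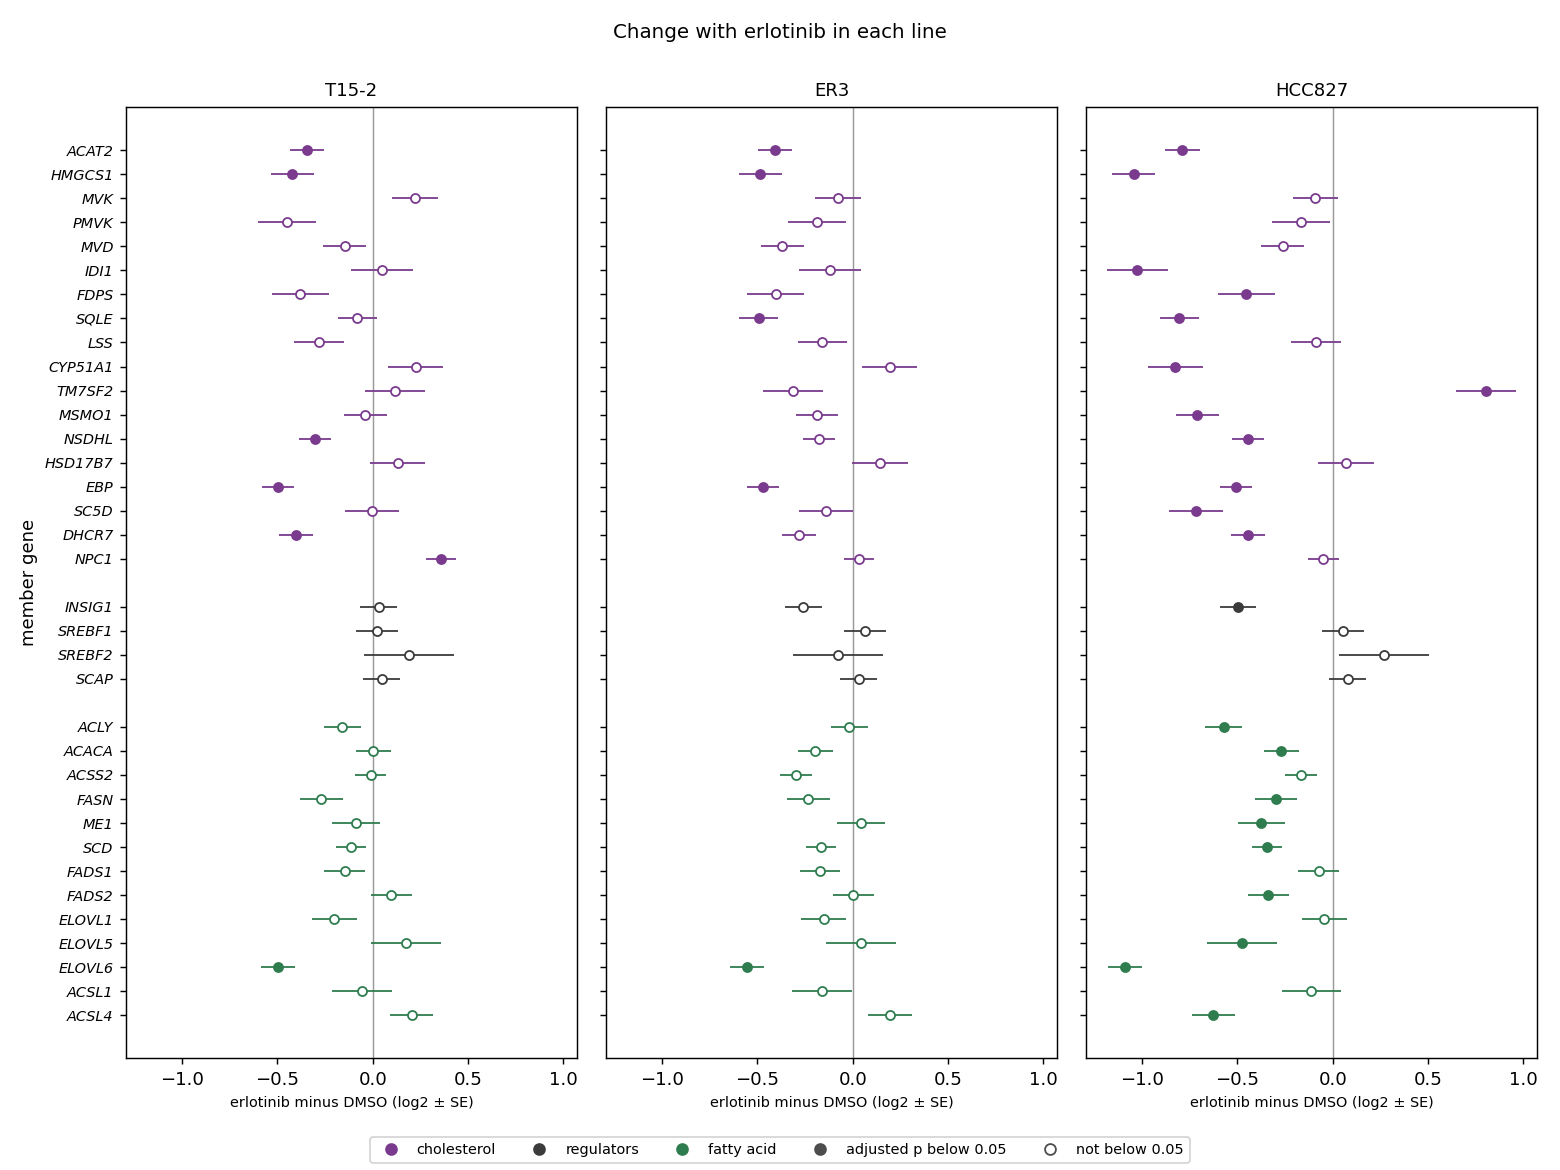
Change with erlotinib (erlotinib minus DMSO, log2, horizontal axis) of the 35 measured members in T15-2, ER3 and HCC827 from left to right, with error bars of 1 SE from the limma fit; colours give the branch and filled points an adjusted p below 0.05. Falls dominate in HCC827 (21 filled points left of 0), and 6 in T15-2 and 5 in ER3 are filled left of 0.

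Whether the response itself differed between lines was tested as an interaction. The T15-2 response was above that of HCC827 for 11 of 35 members and below it for 1, where 7.17% of all genes tested were above and 5.90% below. The ER3 response was above that of HCC827 for 9 members and below it for 1, where 11.6% and 10.4% of all genes were. Median differences over the members were 0.23 for T15-2 and 0.08 for ER3, against 0.01 and -0.01 over all genes. Both differences use the same HCC827 arrays and their values are given side by side only. Between T15-2 and ER3 the response differed for 0 of 35 members, where 0.0338% of all genes were called, and at an unadjusted p below 0.05 the T15-2 response was higher for 4 members and lower for 0 (limma). The share over all genes at the unadjusted threshold was not taken, and the 0 of 35 does not show that the sublines respond alike.

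IDI1 changed by 0.05 in T15-2, -0.12 in ER3 and -1.02 in HCC827, which made differences of 1.07 ± 0.23 for T15-2 (adjusted p = 0.0041) and 0.91 ± 0.23 for ER3 (adjusted p = 0.00792). CYP51A1 differed by 1.05 ± 0.20 for T15-2 and 1.02 ± 0.20 for ER3, and ACSL4 by 0.83 ± 0.16 and 0.82 ± 0.16. ACSL4 had 10.79, 10.76 and 10.60 with erlotinib and 10.44, 10.53 and 10.57 in DMSO in T15-2, and 10.84, 10.74 and 10.92 with erlotinib and 10.51, 10.82 and 10.58 in DMSO in ER3. Its changes there, 0.21 ± 0.11 in T15-2 and 0.20 ± 0.11 in ER3, were not called. Averaged over its kept probes, the ACSL4 difference for T15-2 was 0.38 (adjusted p = 0.085).

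MSMO1 differed by 0.67 ± 0.16 for T15-2 and 0.52 ± 0.16 for ER3, but averaged over its kept probes by 0.30 (adjusted p = 0.11) and 0.20 (adjusted p = 0.26). SC5D differed by 0.71 ± 0.20 and 0.58 ± 0.20, HMGCS1 by 0.62 ± 0.16 and 0.56 ± 0.16, and ELOVL6 by 0.59 ± 0.13 and 0.53 ± 0.13. HMGCS1 and ELOVL6 thus fell in both sublines and fell less there than in HCC827. The ER3 call of SC5D (adjusted p = 0.0441) was lost in 12 settings, among them no filter on dim probes and the replicate block. ACAT2 differed by 0.45 ± 0.13 and 0.38 ± 0.13, and averaged over its probes by 0.24 (adjusted p = 0.24) and 0.19 (adjusted p = 0.31). SQLE (0.73 ± 0.14), INSIG1 (0.53 ± 0.14) and NPC1 (0.41 ± 0.11) were called for T15-2, and ACLY (0.55 ± 0.14) for ER3. INSIG1 itself had 10.69, 10.77 and 10.55 with erlotinib and 10.58, 10.69 and 10.64 in DMSO in T15-2, and 10.75, 10.53 and 10.61 with erlotinib and 10.80, 11.02 and 10.84 in DMSO in ER3. ACLY had 12.17, 12.07 and 11.89 with erlotinib and 12.07, 12.11 and 12.01 in DMSO in ER3, groups that overlapped.

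TM7SF2 was the single member with a lower response in the sublines, by -0.69 ± 0.22 in T15-2 and -1.12 ± 0.22 in ER3. It had 7.86, 7.78 and 8.06 with erlotinib and 7.89, 7.54 and 7.91 in DMSO in T15-2, and 7.66, 8.29 and 8.38 with erlotinib and 8.57, 8.41 and 8.29 in DMSO in ER3, so neither subline had groups that lay apart. Its T15-2 call was lost under several settings, among them median scaling (-0.62, adjusted p = 0.075). EBP, by contrast, differed by no more than its SE: its 3 changes lay between -0.51 and -0.47. Calls that held in every alternative numbered 6 of 12 for T15-2 (HMGCS1, IDI1, SQLE, CYP51A1, INSIG1 and ELOVL6) and 6 of 10 for ER3 (IDI1, CYP51A1, TM7SF2, ACLY, ELOVL6 and ACSL4). Leaving out HCC827 DMSO replicate 2 gave 6 calls for ER3.

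**Figure D3:**
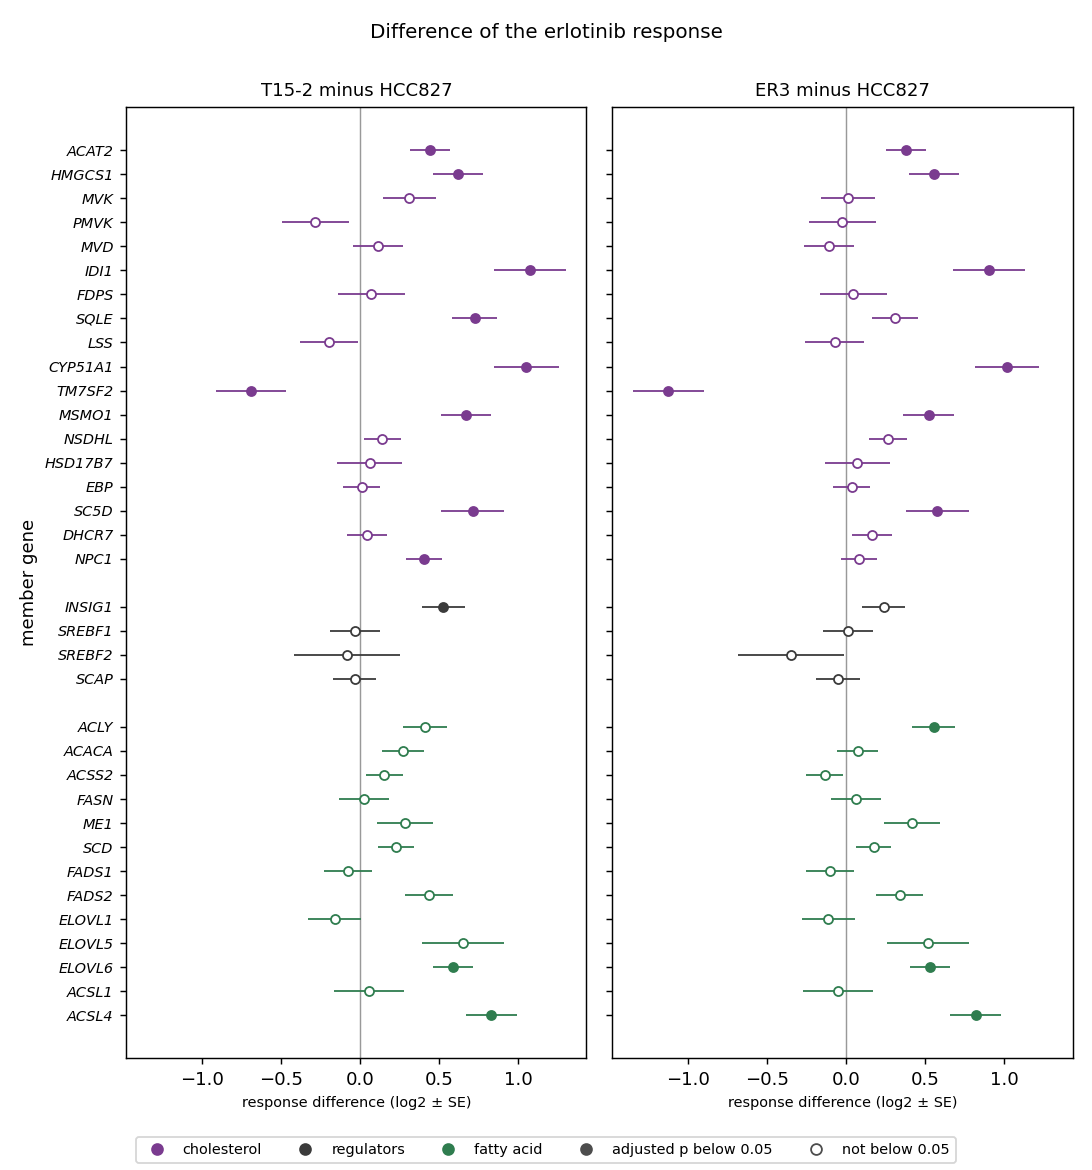
Difference of the erlotinib response (subline minus HCC827, log2, horizontal axis) of the 35 measured members for T15-2 (left) and ER3 (right), with error bars of 1 SE; filled points have an adjusted p below 0.05. Filled points lie right of 0 apart from TM7SF2, at -0.69 for T15-2 and -1.12 for ER3.

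The sublines were next compared with the parent without the drug. In DMSO, 22 of 35 members were lower in T15-2 than in HCC827 and 2 were higher, where 16.3% of all genes were lower and 15.9% higher. In ER3, 18 members were lower and 2 higher, where 19% and 16.0% of all genes were. Median differences over the members were -0.31 in T15-2 and -0.27 in ER3, against 0.01 and -0.02 over all genes. In the cholesterol branch 11 of 18 were lower in T15-2 and 7 in ER3, and in the fatty acid branch 9 of 13 and 8. Without FADS2, 21 of 34 members were lower in T15-2 and 17 in ER3. Calls that held in every alternative and with every array left out numbered 12 of 24 in T15-2 and 10 of 20 in ER3. These 2 comparisons share the HCC827 DMSO arrays, which also enter the HCC827 response and both differences of response. Those results are therefore not independent of one another. The mean over the 35 members was 9.46, 9.47 and 9.40 on these arrays, and the highest of the other arrays, ER3 DMSO replicate 2, had 9.16. Whether high values on these arrays underlie several of the results was not tested. With each array scaled to its median over all probes, most of them dim, the median of all genes moved to -0.12 in T15-2 and -0.22 in ER3, and the counts were 24 lower and 0 higher in each. The shares of all genes under that scaling are not given here, and those above do not apply to these counts.

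Among the widest differences were those of 2 genes that make acyl-CoA and acetyl-CoA. ACSL1, a long-chain acyl-CoA ligase, had 6.18, 6.42 and 6.10 in T15-2, 4.69, 5.49 and 4.81 in ER3, and 7.65, 7.69 and 7.84 in HCC827, all in DMSO. The lines did not overlap, and the differences from HCC827 were -1.49 ± 0.16 in T15-2 (2.82-fold lower, adjusted p = 3.65e-07) and -2.73 ± 0.16 in ER3 (6.63-fold lower, adjusted p = 6.46e-11). In ER3 its probe was above background on 1 of the 3 DMSO arrays and 1 of the 3 erlotinib arrays, so the size of its ER3 differences rests largely on values near background. Without ER3 DMSO replicate 2, the highest of them, the DMSO difference was -2.98. With erlotinib the order was the same, at 6.27, 6.26 and 6.00 in T15-2, 4.75, 5.02 and 4.73 in ER3 and 7.55, 7.69 and 7.60 in HCC827. ACSS2 had 10.28, 10.26 and 10.36 in T15-2, 11.66, 11.57 and 11.66 in ER3, and 11.99, 11.88 and 11.95 in HCC827 in DMSO. It was 3.11-fold lower in T15-2 (-1.64 ± 0.08, adjusted p = 6.7e-12) and 1.24-fold lower in ER3 (-0.31 ± 0.08), and its second probe gave -1.53 and -0.26. T15-2 kept these levels with erlotinib, at 10.26, 10.29 and 10.32, against 11.35, 11.45 and 11.18 in ER3 and 11.74, 11.84 and 11.74 in HCC827.

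SCD had 12.41, 12.47 and 12.49 in T15-2, 12.39, 12.43 and 12.40 in ER3, and 13.02, 13.01 and 13.08 in HCC827, so the desaturase was lower by nearly the same amount in both sublines (-0.58 ± 0.08 in T15-2 and -0.63 ± 0.08 in ER3). FASN had 13.07, 13.16 and 13.11 in T15-2, 13.26, 13.00 and 13.31 in ER3, and 13.74, 13.59 and 13.54 in HCC827 (-0.51 ± 0.11 in T15-2 and -0.43 ± 0.11 in ER3). Both FASN calls were lost under median scaling over the bright probes (adjusted p = 0.06 and 0.085). ACACA was lower by -0.36 ± 0.09 in T15-2 and -0.58 ± 0.09 in ER3, and ACLY by -0.31 and -0.30 (SE 0.10). ELOVL6 was lower by -0.71 ± 0.09 in ER3 and by -0.26 ± 0.09 in T15-2, and the T15-2 call was lost with the mean of its probes (-0.15, adjusted p = 0.13). FADS2, kept by the filter only through HCC827, was at least 1.18-fold lower in T15-2 and at least 1.16-fold lower in ER3, bounds set by the lowest signal above background that lend no support to the counts. Its measured means were 4.60 in T15-2, 4.65 in ER3 and 5.11 in HCC827. ME1 was lower in T15-2 (7.45, 7.28 and 7.42, against 7.98, 7.85 and 7.75 in HCC827, -0.48 ± 0.13) and was not called in ER3, where it had 7.92, 8.33 and 8.03.

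In the sterol steps SC5D had 8.05, 8.59 and 8.51 in T15-2, 8.82, 9.24 and 8.97 in ER3, and 10.09, 10.05 and 9.81 in HCC827 in DMSO. It was 3.02-fold lower in T15-2 (-1.60 ± 0.14, adjusted p = 3.65e-08) and 1.97-fold lower in ER3 (-0.98 ± 0.14, adjusted p = 2.25e-05). LSS had 7.99, 8.03 and 7.88 in T15-2, 8.26, 8.09 and 8.41 in ER3, and 8.82, 9.19 and 8.99 in HCC827. Both sublines lay below the parent, by -1.03 ± 0.13 in T15-2 and -0.75 ± 0.13 in ER3, and by -0.56 and -0.43 when its 3 kept probes were averaged. MVK was dim but lower in both, with 5.82, 5.66 and 6.07 in T15-2, 6.03, 5.96 and 6.16 in ER3 and 6.54, 6.45 and 6.32 in HCC827 (-0.59 ± 0.12 and -0.39 ± 0.12). The ER3 call of MVK was lost without ER3 DMSO replicate 2 (-0.34, adjusted p = 0.055). SQLE (-0.32 and -0.28), EBP (-0.29 and -0.25) and IDI1 (-0.50 and -0.45) were lower in T15-2 and in ER3 by less, and each lost its call in both comparisons when certain single DMSO arrays were left out. MVD (-0.56 ± 0.11), MSMO1 (-0.41 ± 0.11), TM7SF2 (-0.47 ± 0.16) and DHCR7 (-0.30 ± 0.09) were lower in T15-2, and NSDHL (-0.43 ± 0.08) in ER3.

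The members that ran the other way in DMSO were few. NPC1 was higher in both sublines (0.27 ± 0.08 in T15-2 and 0.22 ± 0.08 in ER3), though under the scaling over all probes its ER3 difference was -0.066. PMVK, the phosphomevalonate kinase, was higher in T15-2, with 7.68, 7.72 and 7.94 against 7.41, 6.70 and 6.98 in ER3 and 7.30, 7.39 and 7.12 in HCC827 (0.51 ± 0.15 over HCC827). ACAT2 was higher in ER3 (0.42 ± 0.09, adjusted p = 0.00126) and lower in T15-2 (-0.51 ± 0.09, adjusted p = 0.000225), with the levels given above.

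Of the regulators, SREBF1 had 7.80, 7.52 and 7.62 in T15-2, 7.18, 7.12 and 7.04 in ER3, and 7.79, 8.16 and 7.91 in HCC827. ER3 lay below HCC827 by -0.84 ± 0.11 (1.79-fold, adjusted p = 6.99e-06). T15-2 overlapped HCC827, and its call (-0.31 ± 0.11, adjusted p = 0.0383) was lost without HCC827 DMSO replicate 2 (-0.20, adjusted p = 0.2). A second probe of SREBF1 gave -0.56 in each subline. INSIG1 was lower in both, by -0.70 ± 0.10 in T15-2 and -0.45 ± 0.10 in ER3, and by -0.97 and -0.24 on its second probe. SCAP had 8.71, 8.85 and 8.66 in T15-2, 8.49, 8.44 and 8.72 in ER3 and 8.81, 8.76 and 8.86 in HCC827, with a call in ER3 (-0.26 ± 0.10, adjusted p = 0.0449) that was lost without any 1 of the 3 HCC827 DMSO arrays. SREBF2, at 5.70, 4.60 and 4.73 in T15-2, 5.25, 4.93 and 4.88 in ER3 and 4.97, 4.72 and 4.85 in HCC827, did not pass the test.

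**Figure D4:**
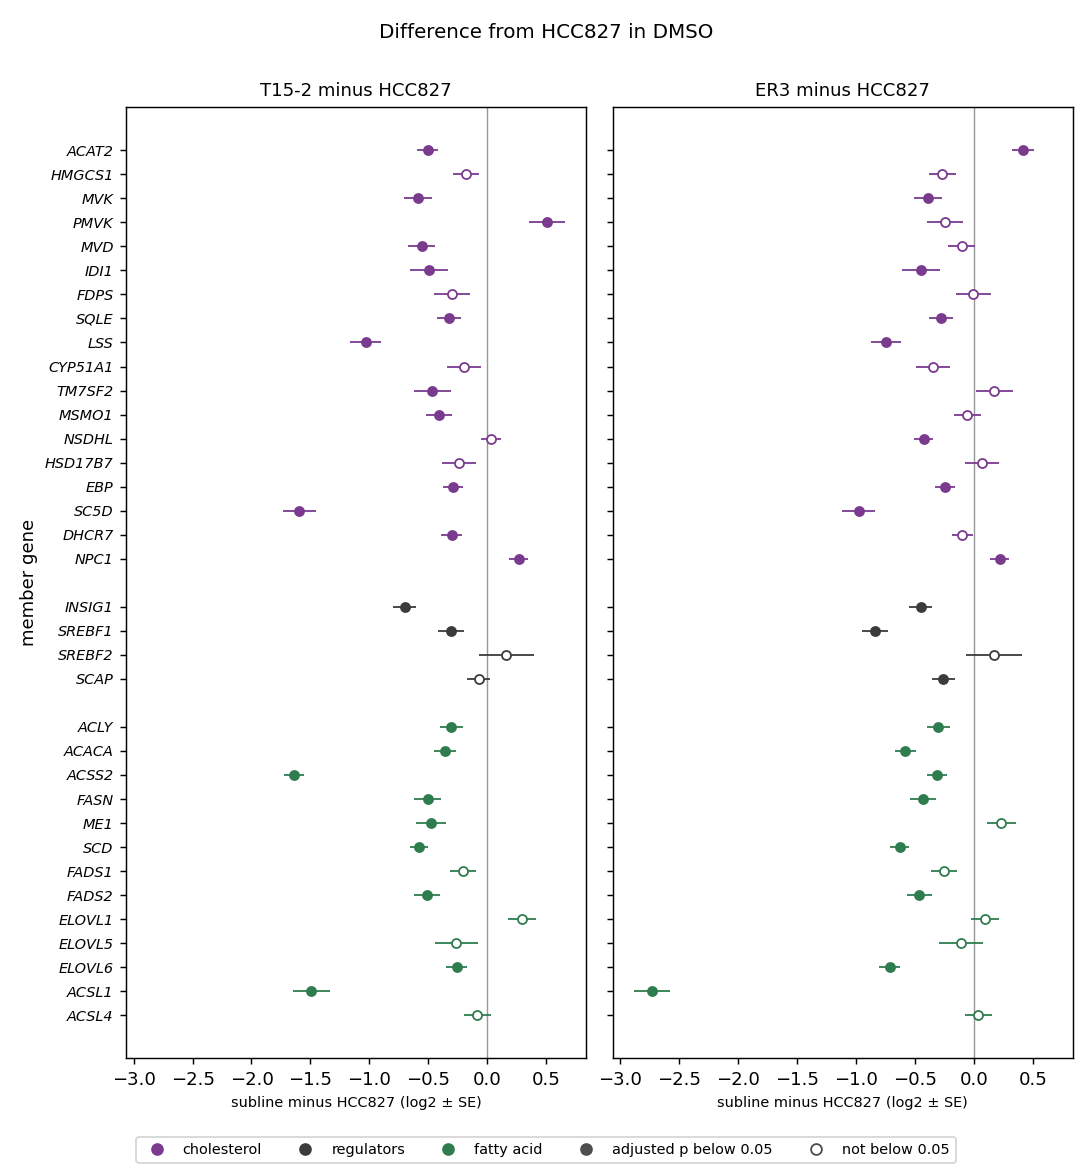
Difference from HCC827 in DMSO (subline minus HCC827, log2, horizontal axis) of the 35 measured members for T15-2 (left) and ER3 (right), with error bars of 1 SE; filled points have an adjusted p below 0.05. In ER3 ACSL1 lies at -2.73 with a probe above background on 1 of 3 arrays, and in T15-2 ACSS2 (-1.64), SC5D (-1.60) and ACSL1 (-1.49) lie farthest left.

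The sublines were also set against each other in DMSO. T15-2 was higher than ER3 for 5 of 35 members and lower for 7, where 17.8% of all genes were higher and 15.5% lower, with a member median of -0.04 against 0.02. ACSS2 (-1.33 ± 0.08), ACAT2 (-0.92 ± 0.09), ME1 (-0.71 ± 0.13), TM7SF2 (-0.64 ± 0.16) and SC5D (-0.62 ± 0.14) were lower in T15-2, as were MVD (-0.45 ± 0.11) and MSMO1 (-0.35 ± 0.11). ACSL1 (1.24 ± 0.16), PMVK (0.75 ± 0.15), SREBF1 (0.53 ± 0.11), NSDHL (0.45 ± 0.08) and ELOVL6 (0.45 ± 0.09) were higher. For SREBF1 this rests on its brighter probe, since the second stood at -0.56 from HCC827 in each subline. The MSMO1 call was lost without ER3 DMSO replicate 2 (-0.24, adjusted p = 0.12) and without T15-2 DMSO replicate 3 (-0.31, adjusted p = 0.077). The other 11 held with every array left out in turn. Under median scaling over all probes MSMO1 (-0.26, adjusted p = 0.29) and MVD (-0.34, adjusted p = 0.063) lost their calls. Thus 10 of the 12 calls held in every alternative. These counts lie near the shares over all genes and are read as values of single members only.

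**Figure D5:**
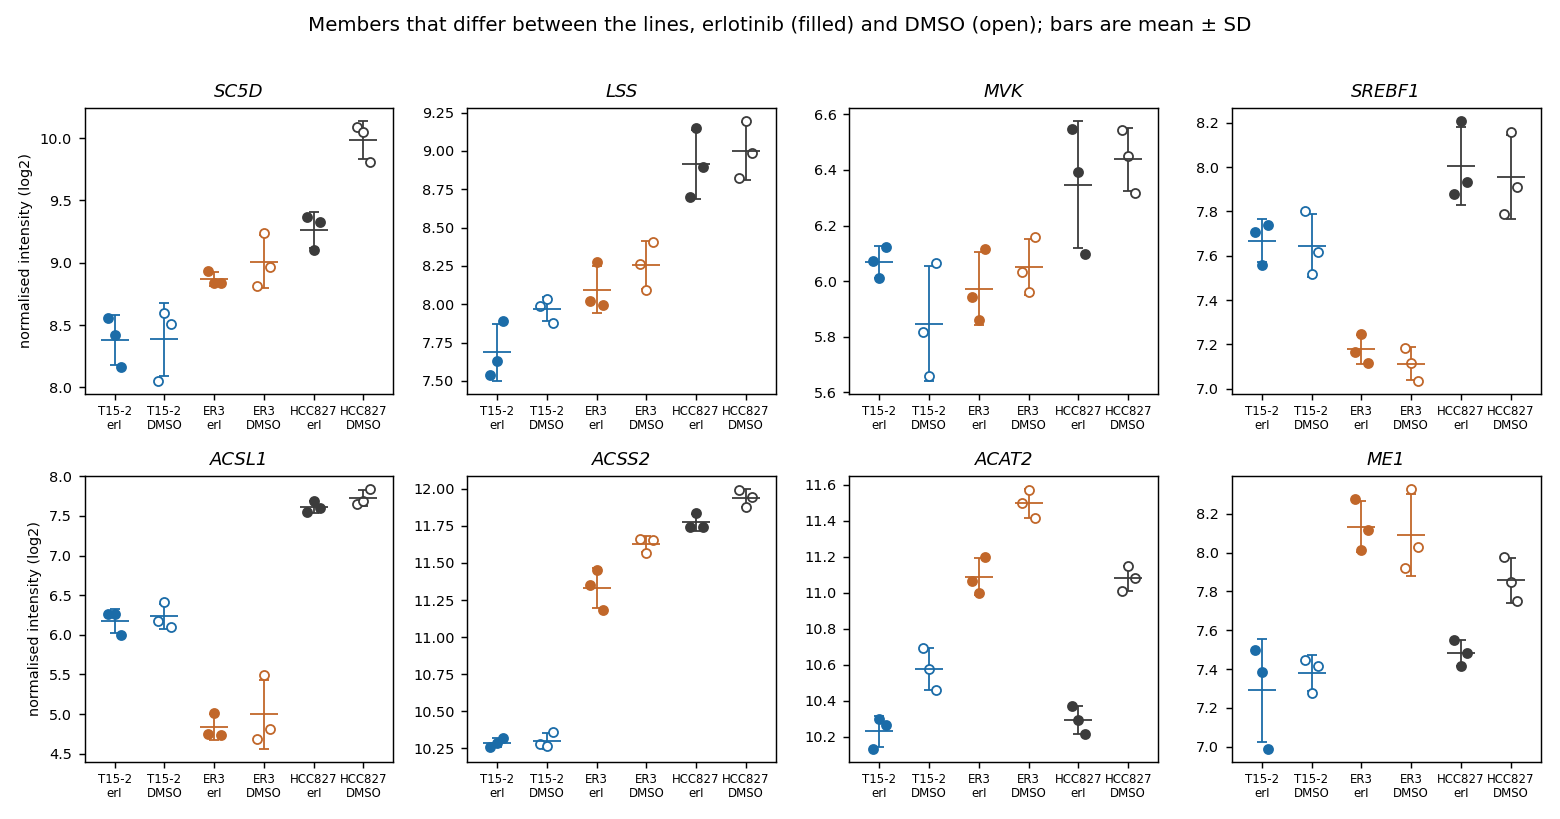
Normalised intensity (log2, vertical axes differ between panels) of 8 members on each array, with T15-2, ER3 and HCC827 from left to right and erlotinib (filled) left of DMSO (open) in each; horizontal bars are group means and error bars 1 SD of 3 arrays. SC5D and LSS are lowest in T15-2 and highest in HCC827, ACSS2 is low in T15-2, and ACSL1 and SREBF1 are lowest in ER3.

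With erlotinib in all lines, T15-2 was higher than HCC827 for 7 members and lower for 12, where 21.9% of all genes were higher and 20.7% lower. ER3 was higher for 9 and lower for 13, where 21.6% and 23% of all genes were. Here CYP51A1 was higher in T15-2 (0.86 ± 0.14) and in ER3 (0.67 ± 0.14), ACSL4 was higher (0.75 ± 0.11 and 0.86 ± 0.11), and HMGCS1 was higher in T15-2 (0.44 ± 0.11, adjusted p = 0.00349) and in ER3 (0.29 ± 0.11, adjusted p = 0.0412). NPC1 was also higher in both (0.67 ± 0.08 and 0.30 ± 0.08), and ME1 (0.65 ± 0.13) and ACAT2 (0.80 ± 0.09) were higher in ER3. LSS (-1.23 ± 0.13 and -0.82 ± 0.13), TM7SF2 (-1.16 ± 0.16 and -0.95 ± 0.16), SREBF1 (-0.34 ± 0.11 and -0.83 ± 0.11) and ACSL1 (-1.44 ± 0.16 and -2.78 ± 0.16) were lower in T15-2 and in ER3, with ACSL1 above background on 1 of the 3 ER3 arrays. SREBF1 had 7.71, 7.56 and 7.74 in T15-2, 7.17, 7.25 and 7.12 in ER3 and 7.88, 8.21 and 7.93 in HCC827 with erlotinib. Its T15-2 call was lost without HCC827 erlotinib replicate 2 (-0.24, adjusted p = 0.12) and without T15-2 erlotinib replicate 2 (-0.28, adjusted p = 0.084). It was also lost under median scaling over all probes (-0.19, adjusted p = 0.36). SCD had 12.41, 12.38 and 12.24 in T15-2, 12.24, 12.26 and 12.22 in ER3 and 12.80, 12.69 and 12.60 in HCC827, and was lower by -0.35 ± 0.08 and -0.45 ± 0.08. Scaled to the median over all probes, the split was 10 higher and 6 lower in T15-2 and 7 higher and 5 lower in ER3, and with median scaling over bright probes it was 9 and 11 in T15-2. The shares of all genes under these scalings are not given here.

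Genes next to the 2 routes were read from 6 lists, whose counts stand beside 19.2% of all genes that rose and 18.5% that fell with erlotinib in HCC827. Of 16 genes of mitochondrial fatty acid oxidation, 6 rose and 1 fell with erlotinib in HCC827, led by the short-chain acyl-CoA dehydrogenase ACADS (0.82 ± 0.14) and the isomerase ECI1 (0.80 ± 0.17). In DMSO 8 of these 16 were lower and 1 was higher in ER3 (19% and 16.0% of all genes), with HADH at -0.78 ± 0.09. Of 8 genes of sterol efflux and esterification, 3 rose and 3 fell in HCC827: the cholesterol exporter ABCA1 rose (0.92 ± 0.12), as did the sterol carrier OSBP (0.49 ± 0.08), and the esterifying enzyme SOAT1 fell (-0.55 ± 0.11). ABCA1 (0.44 ± 0.12) and OSBP (0.37 ± 0.08) rose in T15-2 as well, where 3 of the 8 rose and none fell (4.43% and 4.00% of all genes). Of 13 isoprenoid and prenylation genes, 4 fell and 1 rose in HCC827, and PDSS1, which makes the side chain of coenzyme Q, fell in T15-2 (-0.61 ± 0.10), ER3 (-0.48 ± 0.10) and HCC827 (-1.48 ± 0.10). Of 11 genes of other lipogenic supply, 2 fell, HSD17B12 (-0.86 ± 0.13) and HACD3 (-0.59 ± 0.09), a count near the share over all genes. These are read as values of single genes only. Both act in the same elongation cycle as ELOVL6, but so does the reductase TECR, which was not called (-0.08 ± 0.14). In DMSO the NADPH source IDH1 was lower in T15-2 (-0.97 ± 0.11) and in ER3 (-0.73 ± 0.11), and so was LPIN1, a phosphatidate phosphatase (-0.97 ± 0.09 and -0.95 ± 0.09). Of 6 genes of SREBP processing 1 rose in HCC827, the protease gene MBTPS1 (0.65 ± 0.11), and of 10 genes of glycerolipids 2 rose and 1 fell, with the lipase PNPLA2 at 0.74 ± 0.13. PNPLA2 also rose in ER3 (0.56 ± 0.13), the single call among these 10 there, where 2.01% of all genes rose and 1.74% fell. The HCC827 counts of the SREBP processing and glycerolipid lists lie near the shares over all genes. They too are read as values of single genes only.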

How the data were processed

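RNA of 18 samples of HCC827, ER3 and T15-2 (6 groups of 3, grouped by the sample titles) was hybridised to Illumina BeadChips, per the labels. The deposited table of 48803 probes held bead intensity values on a linear scale without normalization and a detection p-value for each probe, per the file headers. Per the submitters' processing notes, BeadStudio was used, without a stated version. A further deposited table held processed intensity values, used as an alternative.

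The neqc function (R 4.3.3, limma 3.58.1) corrected the intensities (offset 16, quantile normalization, log2). A probe was kept where its detection p was below 0.05 on 3 or more of the arrays (19931 probes), and the brightest probe stood for its gene. Genes were named by GEO's platform annotation, with symbols updated through RefSeq identifiers (28054 matched). One model of 6 group means was fitted with lmFit and eBayes, 11 contrasts were tested, and p-values were adjusted (Benjamini-Hochberg) over 11820 genes per contrast. The code was tested on simulated data. Precision is limited by how many arrays there are.

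The members, the lists, the tests and the rule for named genes were chosen with earlier results of these data known. All members may be named, with array values for those among the 3 largest called changes of their branch in any contrast (regulators included), for INSIG1, SREBF1, SREBF2, FASN, SCD and HMGCS1, and, chosen after their values were seen, ranges for NPC1, FDPS and FADS2. TECR, CD14 and SFTPB were also named after their values were seen. Of each related list, members among the 3 largest changes per contrast may be named. Replicate numbers were taken from the titles and did not pair the arrays: of 24 same-numbered pairs, correlations of the deviations from group means ran from -0.40 to 0.23.

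The alternatives were no background correction, median scaling over bright probes, the authors' processed values, no filter and a stricter filter on dim probes, the mean of a gene's probes, eBayes with its trend and robust options, a fit of only the groups compared, a replicate block, each array left out in turn and, added after seeing the data, median scaling over all probes and a fit with the extreme arrays of the first within-group component removed.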

Additional observations from a re-analysis of the deposited data

Results flagged for a closer look

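The erlotinib response of these members differed from that of HCC827 by the test of the difference itself. For T15-2 the differences (T15-2 minus HCC827, log2) were 1.07 for IDI1, 1.05 for CYP51A1, 0.83 for ACSL4, 0.73 for SQLE, 0.71 for SC5D, 0.67 for MSMO1, 0.62 for HMGCS1, 0.59 for ELOVL6, 0.53 for INSIG1, 0.45 for ACAT2, 0.41 for NPC1 and -0.69 for TM7SF2. For ER3 (ER3 minus HCC827) they were 1.02 for CYP51A1, 0.91 for IDI1, 0.82 for ACSL4, 0.58 for SC5D, 0.56 for HMGCS1, 0.55 for ACLY, 0.53 for ELOVL6, 0.52 for MSMO1, 0.38 for ACAT2 and -1.12 for TM7SF2. The differences share the HCC827 arrays, and their adjusted p-values ran from 0.00125 to 0.0471. Only 6 of the 12 T15-2 calls and 6 of the 10 ER3 calls held in every alternative.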

How the results depend on the processing

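Of 11 alternatives other than leaving out 1 array, all kept the count of called members within 1.5 times in HCC827 with erlotinib (21 to 24, against 22 as reported), in T15-2 and ER3 against HCC827 in DMSO (21 to 25 and 16 to 24), between the sublines (10 to 14), in T15-2 against HCC827 with erlotinib (16 to 21), and for the T15-2 difference of response (9 to 17). The ER3 response had 0 calls with its own groups alone and 0 under median scaling over all probes, and the T15-2 response had 4 and 0. Under that scaling, which moved the median change of all genes by as much as 0.25, ER3 against HCC827 with erlotinib had 12 calls, the ER3 difference of response had 16, and NPC1 in ER3 in DMSO was -0.066. With each array left out in turn, the counts ran from 16 to 22 for the HCC827 response, 2 to 8 for T15-2, 2 to 7 for ER3, 18 to 25 and 14 to 20 in DMSO for T15-2 and ER3, 11 to 14 between them, 15 to 21 and 16 to 23 with erlotinib, and 8 to 15 and 6 to 12 for the T15-2 and ER3 differences. The replicate block gave 22 calls in HCC827, 6 in T15-2 and 5 in ER3, 25 and 18 in DMSO, and 11 and 8 for the differences of response. A block for the BeadChip was not fitted, as the chip that held each array is not known here. All of these are counts of members alone, given without the share of all genes under each setting. The cause of these shifts was not tested. Members near background (SREBF2, FADS2, ACSL1 in ER3) are limited by signal over background.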
